A study of Homo sapiens with 6 samples.

Results

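Transcripts of 10 genes of glutathione metabolism were followed in the human endometrial adenocarcinoma line Ishikawa. They were GPX1, GPX2, GPX4, GPX8, GSR, GSS, GSTP1, GSTO1, MGST1 and MGST3, chosen by gene symbol among the 60670 genes of the deposited table, and each symbol occurred in it on 1 row. Cells were grown in DMEM/F12 with serum and antibiotics and received either the solvent DMSO (3 libraries) or 5 µM penfluridol (3 libraries), an oral diphenylbutylpiperidine antipsychotic with a long duration of action. How long the cells were treated is not stated in the labels. Separate cultures are not named for libraries 1 to 3, and the p-values therefore speak only to variation among these 6 libraries, which may be technical. Levels are in TPM, a measure of transcript abundance scaled for transcript length and for the total of each library. It keeps no read counts, so the depth behind a value is unknown.

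Glutathione is a small thiol made by ligating cysteine to glutamate and then glycine, the last step being carried out by glutathione synthetase, encoded by GSS. Glutathione peroxidases use it to reduce peroxides, and glutathione reductase, encoded by GSR, returns the oxidised form to the thiol with electrons from NADPH. Glutathione transferases attach it to electrophiles, with a soluble cytosolic family (GSTP1 of the pi class, GSTO1 of the omega class) and an unrelated family of membrane proteins (MGST1 and MGST3). GPX4 is the peroxidase that reduces phospholipid hydroperoxides in membranes and is known as a brake on ferroptosis, an iron-dependent form of cell death.

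The peroxidases among the members differ at their catalytic residue, which is why the surrounding coding sequence is shown. GPX1, GPX2 and GPX4 are selenoproteins, in which a TGA codon is read as selenocysteine, while GPX8 has a cysteine codon at the aligned position. The 39 coding bases around that codon, from GENCODE release 29 transcripts on GRCh38, are given 5′ to 3′ on the coding strand with the codon in capitals. GPX3 and GPX7, 2 peroxidases outside the members that are described further on, are added for comparison.
GPX1: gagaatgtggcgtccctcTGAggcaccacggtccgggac
GPX2: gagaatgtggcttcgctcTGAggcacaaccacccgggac
GPX4: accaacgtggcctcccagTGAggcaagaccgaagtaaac
GPX3: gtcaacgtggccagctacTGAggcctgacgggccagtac
GPX8: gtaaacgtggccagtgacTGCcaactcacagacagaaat
GPX7: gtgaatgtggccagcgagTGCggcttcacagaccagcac
These codons lie at chr3:49358132-49358134 (minus strand) in GPX1, chr14:64942607-64942609 (minus strand) in GPX2, chr19:1105403-1105405 (plus strand) in GPX4 and chr5:55161024-55161026 (plus strand) in GPX8. They are codon 49 of GPX1, codon 40 of GPX2, codon 73 of GPX4 and codon 79 of GPX8, counted from the start codon of the transcript shown.

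All 10 of the epithelial markers looked up (EPCAM, CDH1 and keratins among them) had a mean of at least 1 TPM, with a summed level of 4264 to 5383 TPM in DMSO and 3113 to 3562 TPM with penfluridol, and 1 of them was called higher and 1 lower. Stromal markers summed to at most 5.04 TPM in any library, with DCN, LUM and PDGFRB at 0. Endothelial markers summed to at most 0.92 TPM. Immune markers summed to 1.91 to 3.57 TPM in DMSO and 5.72 to 6.65 TPM with penfluridol, with CD3E and HLA-DRA at 0 and CD68 called higher. DMSO 3 was nearer to the penfluridol libraries than DMSO 1 and DMSO 2 were. Its log2(TPM + 1) correlated with the penfluridol libraries at 0.945 to 0.955, against 0.895 to 0.93 for DMSO 1 and DMSO 2. With DMSO 1 and DMSO 2 it correlated at 0.93 to 0.956, and all pairs of DMSO libraries lay at 0.93 to 0.96. Across all genes, the deviation of a library from the gene's mean correlated with transcript GC content at -0.39 and -0.67 in DMSO 1 and DMSO 2, at 0.19 in DMSO 3, and at 0.53, 0.44 and 0.20 in penfluridol 1, 2 and 3. Values for the members are therefore also given without DMSO 3 and with the GC and length correction, in which the smooth trend of a library with transcript GC content and length was taken out.

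In short, 9 of the 10 genes were expressed highly enough to be tested, and limma called 0 of them higher and 0 lower at an adjusted p under 0.05. GSTP1 and GPX4 made up most of the transcripts and kept nearly the same ratio to each other in all 6 libraries. GPX1 was lower relative to GPX4 in every penfluridol library. MGST1, GSTO1 and MGST3 had lower TPM in every penfluridol library than in any DMSO library, but missed the threshold. Groups that did not overlap were thus found in 3 of 9 members, all lower, against 37.0% of the genes tested in either direction and 13.6% with penfluridol lower, so the share of members is near that of all genes in either direction. In the same fit 13.2% of the 12201 genes tested were called, 9.75% higher and 3.48% lower. These shares depend on the setting. The 425 genes lower became 1081 with the GC and length correction, 718 with median-of-ratios scaling, 2380 without DMSO 3 and 42 without penfluridol 2, and the 1190 higher became 1732 and 214 without these libraries. At an unadjusted p under 0.05 there were 3 members, all lower, against 33.0% of the genes tested. The median log2 fold change was -0.19 over the 9 members and -0.04 over all genes tested. Fold changes are penfluridol against DMSO as log2(TPM + 1), a scale that makes the change of low genes look smaller than it is.

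**Figure D1:**
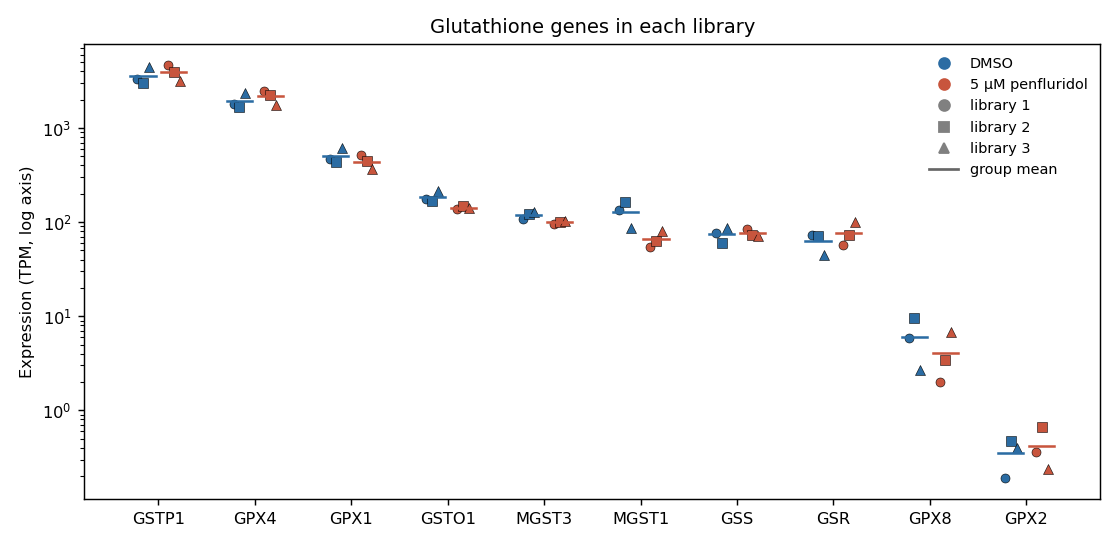
TPM of each member in each library (log axis), with DMSO and penfluridol libraries as separate points and a bar at each group mean. GSTP1 and GPX4 lie highest, GPX1 next and GPX2 below 1 TPM, and the groups are apart for MGST1, GSTO1 and MGST3.

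The levels spanned 4 orders of magnitude. In DMSO the order by mean TPM was GSTP1, GPX4, GPX1, GSTO1, MGST1, MGST3, GSS, GSR, GPX8 and GPX2. Of these neighbours, MGST1 and MGST3 overlapped over the 3 libraries, as did GSS and GSR. With penfluridol MGST1 came eighth, below MGST3, GSR and GSS, and its values overlapped those of GSR and GSS. MGST3 and GSR also overlapped there. GSTP1 took 52.5% to 57.8% of the summed TPM of the 10 genes in every library. By mean TPM over 6 libraries GSTP1 ranked 50 and GPX4 ranked 85 among all genes of the table, against 1324 for MGST1 and 7407 for GPX8.

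Among the peroxidases, GPX4 (ENSG00000167468, chr19:1103926-1106791, plus strand) had 1797, 1678 and 2375 TPM under DMSO against 2495, 2242 and 1769 TPM under penfluridol. The groups overlapped, with the highest DMSO library above 2 of the penfluridol libraries. The means were 1950 ± 373 and 2169 ± 369 TPM (SD, n = 3), which is a log2 fold change of 0.16 (SE 0.18, 95% interval -0.28 to 0.59, adjusted p = 0.569, limma). The sign of this difference turned with the GC and length correction, to -0.16 (95% interval -0.54 to 0.23), and it was 0.31 without DMSO 3. GPX4 supplied 75.9% to 77.0% of the summed TPM of GPX1 to GPX8 in DMSO and 78.0% to 79.8% with penfluridol.

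GPX1 (ENSG00000233276, chr3:49357171-49358600, minus strand) encodes the cytosolic peroxidase for soluble hydroperoxides. Its levels were 463, 433 and 608 TPM under DMSO against 512, 441 and 363 TPM under penfluridol. The groups overlapped, and the lowest value was that of penfluridol 3. The means were 501 ± 93.7 and 439 ± 74.8 TPM (SD, n = 3), a log2 fold change of -0.19 (SE 0.18, 95% interval -0.61 to 0.23, adjusted p = 0.470, limma). After the GC and length correction the difference was -0.50 (95% interval -0.85 to -0.14, adjusted p = 0.0593), and it was -0.04 without DMSO 3 and -0.06 without penfluridol 3. The level of GPX1 is uncertain, since a processed pseudogene on chromosome X, GPX1P1, can share its reads. GPX1P1 had 354, 349 and 483 TPM in the DMSO libraries and 428, 360 and 332 TPM in those of penfluridol. The sum of GPX1 and GPX1P1 was 896 ± 169 TPM in DMSO and 812 ± 123 TPM with penfluridol, again with overlap.

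For GPX1 and GSTP1 the ratio to GPX4 within each library varied less within a group than their TPM. The ratio of GPX1 to GPX4 was 0.258, 0.258 and 0.256 in DMSO and 0.205, 0.197 and 0.205 with penfluridol. The groups were apart by far more than their spread, with means of 0.257 ± 0.00103 and 0.202 ± 0.00483 (SD, n = 3), a difference of -0.35 on the log2 scale or -21.3%. A two-sided exact permutation test over the libraries gave p = 0.1, the smallest that 3 against 3 allows. This ratio was chosen after its values were seen, and 6 of the 36 possible pairs of tested members had ratios that did not overlap between the groups. The share of such pairs among all genes tested was not computed, so whether 6 of 36 is usual is unknown. Of the 12200 other genes tested, 8.73% had a ratio to GPX4 that was lower in every penfluridol library than in any DMSO library, and among the 8 other tested members 2 did, GPX1 and GSTO1. The log2 difference for GPX1 stayed between -0.36 and -0.33 when any library was left out, and was -0.34 after the GC and length correction. GPX1 and GPX4 are alike in median transcript GC content, 62.6% and 62.8%, and in length, 802.5 and 803 bases. The correction takes nearly the same amount from both, so it could hardly move their ratio and is no check of it.

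The difference was also measured with the pseudogene added to GPX1. GPX1 plus GPX1P1 stood to GPX4 at 0.454, 0.465 and 0.459 in DMSO and at 0.377, 0.358 and 0.393 with penfluridol, a change of -18.3% (exact permutation p = 0.1). The ratio of GPX1P1 to GPX1 was 0.764 to 0.806 in DMSO and 0.817 to 0.916 with penfluridol, so the 2 did not move in strict proportion. Against GSTP1 in place of GPX4, GPX1 was at 0.140, 0.145 and 0.137 in DMSO and at 0.109, 0.111 and 0.115 with penfluridol. GSTP1 itself stood to GPX4 at 1.77 to 1.89 in all libraries, so this second reference is no independent check. A ratio within a library shows unequal change and does not say which of its genes moved.

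**Figure D2:**
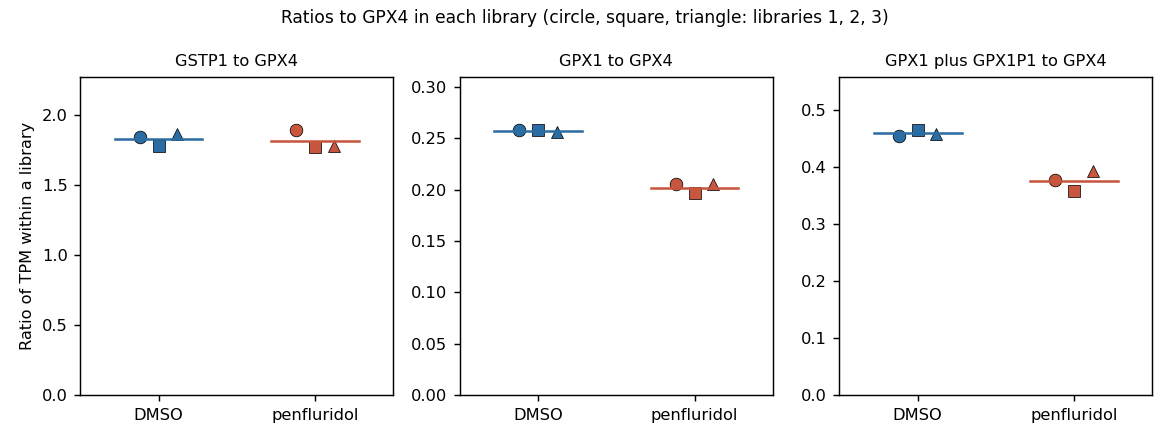
Ratio of a member's TPM to that of GPX4 in the same library, for each library of the DMSO and penfluridol groups. Group means, drawn as bars, are 0.257 and 0.202 for GPX1, with no overlap, while the GSTP1 ratio stays between 1.77 and 1.89 in all 6 libraries.

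GPX8 (ENSG00000164294, chr5:55160118-55167071, plus strand) encodes a membrane peroxidase of the endoplasmic reticulum. It was low and variable, with 5.89, 9.57 and 2.67 TPM under DMSO against 2.01, 3.4 and 6.72 TPM with penfluridol. DMSO 3 fell among the penfluridol values and penfluridol 3 among the DMSO values. The log2 fold change was -0.46 (SE 0.48, 95% interval -1.59 to 0.66, adjusted p = 0.512, limma) and turned to 0.23 after the GC and length correction. Single libraries decided its size, which was -0.87 without DMSO 3, -0.82 without penfluridol 3, -0.10 without DMSO 2 and -0.14 without penfluridol 1. GPX2 (ENSG00000176153, chr14:64939152-64942905, minus strand), the peroxidase of the gastrointestinal epithelium, was close to 0. The DMSO libraries had 0.19, 0.47 and 0.4 TPM, the penfluridol libraries 0.36, 0.67 and 0.24 TPM, and the gene was not tested. Its locus overlaps CHURC1 on the opposite strand, a gene of up to 55.5 TPM, and whether the counting used strand is not stated.

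The enzymes that make and recycle glutathione did not pass the test. GSR (ENSG00000104687, chromosome 8, minus strand) had 73.0, 71.7 and 44.3 TPM under DMSO against 57.8, 73.7 and 99.3 TPM under penfluridol. Its groups overlapped, with the lowest value in DMSO 3 and the highest in penfluridol 3. The log2 fold change was 0.28 (SE 0.26, 95% interval -0.33 to 0.90, adjusted p = 0.459, limma), 0.27 after the GC and length correction and 0.05 without DMSO 3. GSS (ENSG00000100983, chr20:34928433-34956027, minus strand) had 75.8, 60.6 and 86.2 TPM under DMSO against 83.9, 72.3 and 71.2 TPM under penfluridol. The 3 penfluridol values lay within the DMSO range. Its log2 fold change of 0.04 had a 95% interval of -0.33 to 0.41 (adjusted p = 0.873), so a rise above 1.33-fold falls outside it. The difference turned to -0.15 after the GC and length correction, to -0.10 without DMSO 2 and to -0.03 without penfluridol 1, and was 0.15 without DMSO 3.

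GSTP1 (ENSG00000084207, chr11:67583595-67586656, plus strand) was the most abundant member. It had 3313, 2985 and 4426 TPM under DMSO against 4708, 3975 and 3145 TPM under penfluridol. The groups overlapped, with penfluridol 3 below 2 of the DMSO libraries. The means were 3575 ± 755 and 3943 ± 782 TPM (SD, n = 3), a log2 fold change of 0.14 (SE 0.20, 95% interval -0.34 to 0.62, adjusted p = 0.641, limma). It turned to -0.17 after the GC and length correction and was 0.31 without DMSO 3. GSTP1 held 84.7% to 87.8% of the summed TPM of 19 soluble transferases in DMSO and 86.6% to 91.7% with penfluridol. Its ratio to GPX4 was 1.84, 1.78 and 1.86 in DMSO and 1.89, 1.77 and 1.78 with penfluridol, with a coefficient of variation of 2.76% over the 6 libraries.

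GSTO1 (ENSG00000148834, chr10:104235356-104267459, plus strand) encodes the omega transferase, a thioltransferase and dehydroascorbate reductase. It had 175, 167 and 212 TPM under DMSO against 137, 148 and 140 TPM under penfluridol. The groups did not overlap, and the penfluridol values were close together. The means were 185 ± 23.7 and 142 ± 5.36 TPM (SD, n = 3), a log2 fold change of -0.37 (SE 0.12, 95% interval -0.65 to -0.09, adjusted p = 0.0864, limma). Over 13 other settings the log2 fold change was -0.44 to -0.27 and the adjusted p 0.0631 to 0.335. After the GC and length correction it was -0.36 with a 95% interval of -0.78 to 0.06, and without DMSO 3 it was -0.27.

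MGST1 (ENSG00000008394, chr12:16347142-16609259, plus strand) is a transferase and peroxidase of the outer mitochondrial membrane and endoplasmic reticulum. It had 136, 162 and 85.7 TPM under DMSO against 54.4, 62.8 and 80.3 TPM under penfluridol. The groups did not overlap, but DMSO 3 was close to penfluridol 3. The means were 128 ± 38.7 and 65.8 ± 13.2 TPM (SD, n = 3), a log2 fold change of -0.92 (SE 0.25, 95% interval -1.52 to -0.32, adjusted p = 0.0579, limma). The call was made without DMSO 3 (-1.18, adjusted p = 0.00649), with median-of-ratios scaling (adjusted p = 0.0231) and with a stricter filter on low values, 5 TPM in at least 3 libraries (adjusted p = 0.0423). After the GC and length correction the difference was -0.21 (95% interval -0.49 to 0.06, adjusted p = 0.235). MGST1 had the lowest transcript GC content of the members, 39.4%. In RNA of whole cultures, fewer cells with a transcript and less transcript per cell cannot be told apart.

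MGST3 (ENSG00000143198, chr1:165630861-165661796, plus strand) is a transferase and peroxidase of the same membrane family. It had 109, 122 and 127 TPM under DMSO against 95.8, 99.7 and 102 TPM under penfluridol. Its groups did not overlap, and its coefficient of variation was the smallest of the members in DMSO (7.85%) and with penfluridol (3.29%). The log2 fold change was -0.26 (SE 0.11, 95% interval -0.51 to -0.01, adjusted p = 0.141, limma) and turned to 0.06 after the GC and length correction, and was -0.22 without DMSO 3. The summed TPM of MGST1, MGST2 and MGST3 was 347, 390 and 315 in DMSO and 209, 233 and 264 with penfluridol, without overlap. Each of these genes was lower in every penfluridol library, so their sum could not overlap and adds no result. After the GC and length correction their log2 fold changes were -0.21, -0.28 and 0.06, none called. The share of MGST1 in that sum did overlap, at 27.2% to 41.4% in DMSO and 26.1% to 30.4% with penfluridol.

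**Figure D3:**
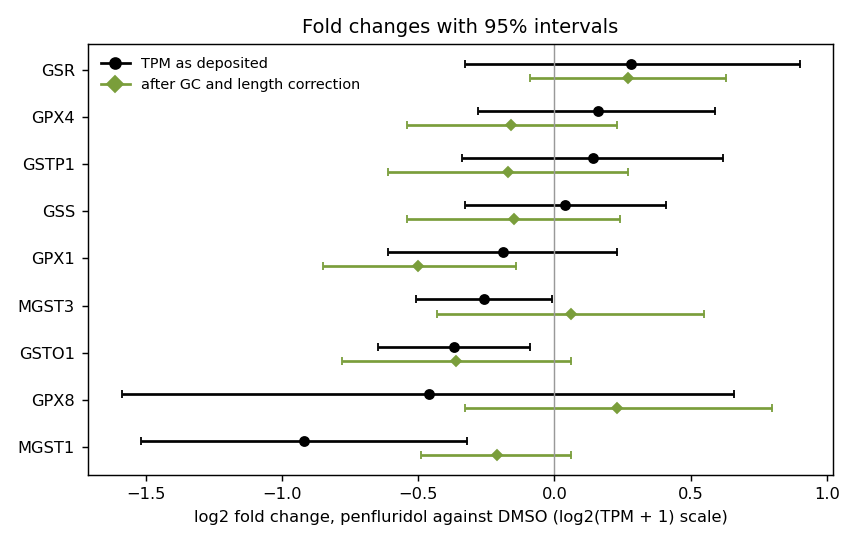
Log2 fold change of each of the 9 tested members, penfluridol against DMSO, with its 95% interval, as fitted and after removal of each library's GC and length trend. As fitted, the intervals of MGST1, GSTO1 and MGST3 exclude 0, and after the correction that of GPX1 alone does, at -0.50.

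The members differed between libraries of the same group along their GC content. DMSO 3 minus the mean of DMSO 1 and 2 was 0.49 for GSTP1, 0.45 for GPX4 and 0.44 for GPX1 on the log2(TPM + 1) scale, and -1.22 for GPX8, -0.78 for MGST1 and -0.69 for GSR. Penfluridol 1 minus penfluridol 3 gave 0.58 for GSTP1, 0.50 for GPX4 and GPX1, -1.36 for GPX8, -0.55 for MGST1 and -0.77 for GSR. Over the 9 tested members the former difference correlated with transcript GC content at Pearson's r = 0.83 and Spearman's rho = 0.92, and the latter at 0.86 and 0.86. These are descriptions across genes, which share libraries and are not independent replicates. GSTP1, GPX1 and GPX4, at 61.6% to 62.8% GC, moved together in them, and GPX8 at 40.6% moved against them. The part of this in the difference between the treatments was not tested beyond the corrected values above.

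**Figure D4:**
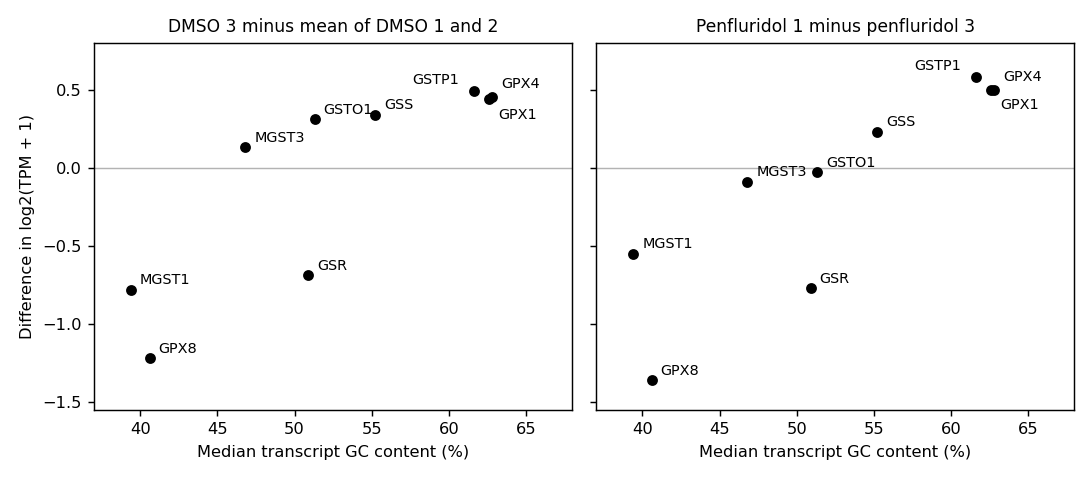
Difference in log2(TPM + 1) between libraries of the same group against transcript GC content (percent), 1 point per tested member, for DMSO 3 minus the mean of DMSO 1 and 2 and for penfluridol 1 minus penfluridol 3. In both panels GSTP1, GPX4 and GPX1 lie high at over 61% GC and GPX8 lies lowest, at -1.22 and -1.36.

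The genes whose log2(TPM + 1) was most like that of GSTP1 over the 6 libraries were FUOM (Pearson's r = 0.9962), NT5C (0.9953) and METTL26 (0.9935), at 63.3%, 65.2% and 67.3% transcript GC. Among the members GPX4 came closest to GSTP1 (r = 0.99) and GPX8 ran opposite to it (r = -0.99). Those most like MGST1 were HMGN1 (r = 0.9998), PRDX3 (0.9996) and MAPRE1 (0.9988), at 46.3%, 40.7% and 43.8% GC. PRDX3, the mitochondrial peroxiredoxin, had means of 64.0 TPM in DMSO and 19.8 TPM with penfluridol. These are the top of a ranking over all genes tested, with 6 libraries that share their GC shifts.

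Promoter sequences are shown since some of the members, GSTP1 among them, are known targets of NRF2, the transcription factor of the oxidative stress response, which binds antioxidant response elements. RefSeq windows on GRCh38.p14, from 250 bases before to 50 bases after a transcript start, were held for 8 of the 10 members in 12 windows. GSR and GSS were not among them. Motifs were searched on both strands. The core TGACNNNGC occurred in windows of GSTP1, GSTO1, MGST1 and GPX2. These are 4 of 8 members, against 16.1% of the 27305 genes with a window, and 13.3% of all 35116 windows held it. Matches upstream of a start are shown with flanks, 5′ to 3′ along the gene's strand and with the match in capitals.
GSTP1, chr11:67583730-67583770 (plus strand): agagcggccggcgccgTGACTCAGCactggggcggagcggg
GSTO1, chr10:104254650-104254690 (plus strand): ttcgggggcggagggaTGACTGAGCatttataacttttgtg
GSTO1, chr10:104254715-104254755 (plus strand): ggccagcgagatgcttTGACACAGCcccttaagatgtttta
GPX2, chr14:64942843-64942883 (minus strand): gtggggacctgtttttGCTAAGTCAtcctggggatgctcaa
The matches begin 66 bases upstream of the start in GSTP1, 226 and 161 bases upstream in GSTO1 and 122 bases upstream in GPX2, where the core reads on the opposite strand. That of MGST1 lies 30 bases past its start. The AP-1 motif TGACTCA, present in 6.05% of genes and 4.95% of windows, occurred among the members in GSTP1, where it overlaps the match shown. The amino acid response motif TGATGNAA (4.46% of genes, 3.62% of windows) occurred in GPX8 and the E-box CACGTG (8.77% of genes, 7.26% of windows) in GPX1. A match describes the letters of a window and shows no binding.

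Genes around the members were read from 13 lists of glutathione and redox genes. They held 167 genes, of which 166 were in the deposited table and 135 were tested. In the lists 27 were called higher and 8 lower, with a median log2 fold change of -0.12. Over all genes tested 9.75% were called higher and 3.48% lower. The lists were chosen with earlier results of these data known, so their counts are no independent result. After the GC and length correction the counts in the lists were 29 and 23, and with median-of-ratios scaling 22 and 16. Of the 35 calls, 11 were made again without any 1 of the 6 libraries and 24 were lost without at least 1. With replicate number added to the model as a block, 6 list genes were called higher and 0 lower. Below, losses with that block are named for the NRF2 list alone.

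Among the other glutathione peroxidases 1 of 2 tested genes rose. GPX3, the secreted plasma selenoperoxidase, had 59.0, 50.5 and 70.1 TPM under DMSO against 104, 96.5 and 95.2 TPM under penfluridol. The groups were apart, by a log2 change of 0.72 with an SE of 0.14 and adjusted p = 0.0209 (limma), or 0.51 after the GC and length correction (adjusted p = 0.0494). The call was lost without DMSO 1 (0.0899) or without penfluridol 1 (0.0812), 2 (0.104) or 3 (0.0552), and with median-of-ratios scaling (0.0701). GPX7, a cysteine peroxidase of the endoplasmic reticulum named here as the only other one tested, had means of 36.2 ± 5.80 and 26.4 ± 7.22 TPM (a log2 change of -0.46 with adjusted p = 0.185).

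Of 19 other soluble transferases listed, 18 were in the deposited table and 10 were tested, with 0 higher, 3 lower and a median log2 fold change of -0.30. GSTA1, an alpha-class enzyme of steroid and hydroperoxide metabolism, fell from 6, 6.43 and 4.25 TPM to 0.65, 0.36 and 1.41 TPM (a log2 change of -1.89 with an SE of 0.29 and adjusted p = 0.00943). Its near-identical paralogs can share its reads. GSTA4, which conjugates the lipid peroxidation product 4-hydroxynonenal, fell from 7.54, 11.1 and 4.51 TPM to 2.04, 2.27 and 2.4 TPM (a log2 change of -1.36 with an SE of 0.30 and adjusted p = 0.0302). GSTM2, a mu-class enzyme, fell from 8.38 ± 0.526 to 4.2 ± 0.47 TPM (a log2 change of -0.85 with an SE of 0.17 and adjusted p = 0.0228). The 3 are low genes beside GSTP1, and all 3 differences were called after the GC and length correction too, at -1.30, -0.82 and -0.86. The call of GSTA1 was lost without DMSO 1 (0.0557) or penfluridol 2 (0.0558), and those of GSTA4 (0.0665 to 0.121) and GSTM2 (0.0563 to 0.131) when any library but DMSO 3 was left out. GSTA4 was lost without the filter on low values too (0.0768). Under the stricter filter of 5 TPM in at least 3 libraries, GSTA1 and GSTA4 were too low to be tested.

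Of the other genes of the membrane family, 2 were tested and 1 fell. MGST2, a microsomal transferase that also makes leukotriene C4, had 103, 106 and 103 TPM under DMSO against 58.5, 70.3 and 81.8 TPM under penfluridol. The log2 fold change of MGST2 was -0.57 with an SE of 0.14 and adjusted p = 0.0403 (limma), and -0.28 after the GC and length correction (adjusted p = 0.237). The call was also lost without DMSO 1 (0.135), DMSO 2 (0.0965), penfluridol 1 (0.109) or penfluridol 2 (0.154), and without the filter on low values (0.0821).

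Glutathione synthesis and amino acid supply had 4 of 9 genes higher and 0 lower. SLC3A2, the heavy chain that carries the cystine antiporter and other exchangers to the membrane, rose from 105 ± 9.96 to 273 ± 16.3 TPM (a log2 change of 1.38 with adjusted p = 0.00136). SLC1A5 and SLC1A4, neutral amino acid transporters, rose from 68.5 ± 6.43 to 192 ± 16.6 TPM and from 5.89 ± 0.248 to 19.1 ± 2.93 TPM (adjusted p = 0.00136 and 0.00332). CBS, which starts the conversion of homocysteine to cysteine, rose from 42.9 ± 2.53 to 71.6 ± 2.25 TPM (a log2 change of 0.72 with adjusted p = 0.00877), a call lost without DMSO 1 (0.0502) or penfluridol 2 (0.0766). Genes named after their values were seen are GCLC, GCLM and SLC7A11. GCLC, the catalytic subunit of the rate-limiting ligase, had 3.50, 4.79 and 1.4 TPM under DMSO against 1.47, 1.68 and 2.24 TPM under penfluridol, with overlap (adjusted p = 0.332). GCLM, the other subunit of that ligase, went the other way, from 4.27 ± 1.54 to 5.89 ± 1.34 TPM, with overlap (a log2 change of 0.41 with adjusted p = 0.349, limma). SLC7A11, the light chain of the cystine antiporter, had means of 1.98 ± 1.17 and 1.54 ± 0.292 TPM.

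Breakdown and export had 2 of 12 tested genes higher and 0 lower. CHAC1, a cyclotransferase that degrades glutathione in the cytosol, rose from 8.46 ± 0.516 to 43.1 ± 5.67 TPM (a log2 change of 2.21 with an SE of 0.15 and adjusted p = 0.000758) and was called under all 13 other settings. CNDP2, a dipeptidase that can cleave cysteinylglycine, rose from 85.6 ± 2.07 to 113 ± 4.88 TPM (adjusted p = 0.0431), a call lost when any library but DMSO 3 was left out (0.0915 to 0.200) and after the GC and length correction (0.103). Glutaredoxins and glyoxalases had 1 of 7 higher, HAGH, which hydrolyses lactoylglutathione and rose from 78.0 ± 7.77 to 136 ± 5.77 TPM (adjusted p = 0.00774). Its call was lost without DMSO 1 (0.0511) or penfluridol 2 (0.0554). Among 16 tested genes of NADPH supply, PGLS of the pentose phosphate pathway rose from 172 ± 25.6 to 252 ± 27.5 TPM (adjusted p = 0.0495) and ALDH1L1 of folate metabolism fell from 276 ± 27.6 to 198 ± 7.32 TPM (adjusted p = 0.0342). The PGLS call was lost when any library but DMSO 3 was left out (0.0619 to 0.189) and after the GC and length correction (0.201), and the call of ALDH1L1 without DMSO 1 (0.139) or penfluridol 1, 2 or 3 (0.117, 0.139 and 0.0846). With median-of-ratios scaling and without the filter on low values the calls of CNDP2 (0.121 and 0.0574), PGLS (0.150 and 0.107) and ALDH1L1 (0.133 and 0.0669) were lost as well.

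The thioredoxin and peroxiredoxin list had 3 of 14 tested genes higher and 1 lower. SESN2, a stress-induced sestrin, rose from 6.53 ± 0.552 to 22.5 ± 2.81 TPM (a log2 change of 1.64 with adjusted p = 0.00227). SRXN1, which repairs overoxidised peroxiredoxins, rose from 22.4 ± 4.04 to 66.4 ± 17.3 TPM (a log2 change of 1.51 with adjusted p = 0.00797), lost without penfluridol 2 (0.0503). PRDX5 rose from 796 ± 114 to 1458 ± 199 TPM (adjusted p = 0.0142) and PRDX4, the peroxiredoxin of the endoplasmic reticulum, fell from 549 ± 32.5 to 374 ± 18.8 TPM (adjusted p = 0.0161, or 0.0671 with the GC and length correction). Without 1 library their adjusted p reached 0.0870 and 0.0973, each time without penfluridol 2. PRDX5 was also lost without DMSO 1 or penfluridol 1 and PRDX4 without DMSO 1, penfluridol 1 or penfluridol 3. Both were lost with median-of-ratios scaling (0.0616 and 0.0970). Among catalase and the superoxide dismutases 1 of 5 fell, SOD1, from 888 ± 44.5 to 526 ± 28.2 TPM (a log2 change of -0.75 with adjusted p = 0.00573, and 0.05 without penfluridol 2).

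Of 16 other selenoproteins tested, 2 rose and 0 fell. SELENOS, of the degradation machinery of the endoplasmic reticulum, rose from 72.6 ± 3.80 to 132 ± 11 TPM (a log2 change of 0.85 with adjusted p = 0.00567) and SELENOM from 128 ± 23.0 to 279 ± 62.3 TPM (a log2 change of 1.10 with adjusted p = 0.0162). SELENOM was lost without DMSO 1 (0.0754) or penfluridol 1 (0.0578) or 2 (0.0870). In the machinery that inserts selenocysteine 1 of 9 rose, SARS1, the seryl-tRNA synthetase, from 109 ± 4.35 to 261 ± 9.89 TPM (adjusted p = 0.00118). SARS1 also charges the ordinary serine tRNAs. The list on lipid peroxidation and ferroptosis, the process that GPX4 restrains, had 2 of 15 tested genes higher and 1 lower. Its median log2 fold change was -0.53, at a median transcript GC content of 46.1% against 51.8% over all genes tested. A median after the GC and length correction was not taken for this list. AIFM2, which regenerates reduced coenzyme Q, rose from 28.2 ± 3.36 to 43.1 ± 0.707 TPM (adjusted p = 0.0279) and POR, an electron donor of cytochromes P450, from 41.3 ± 3.07 to 59.1 ± 1.65 TPM (adjusted p = 0.0297). LPCAT3, which puts polyunsaturated chains into phospholipids, fell from 48.6 ± 3.66 to 29.1 ± 5.42 TPM (adjusted p = 0.0282). AIFM2 (0.0586 to 0.134) and POR (0.0646 to 0.160) were lost when any library but DMSO 3 was left out, and after the GC and length correction (0.114 and 0.112), and LPCAT3 without DMSO 1 or 2 or penfluridol 1 or 2 (0.0524 to 0.138). AIFM2 (0.0726) and POR (0.0971) were lost with median-of-ratios scaling and LPCAT3 (0.0602) without the filter on low values.

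The list of NRF2, its regulators and its targets had 10 of 22 tested genes higher and 0 lower, with a median log2 fold change of 0.66. Its median transcript GC content was 56.1%, against 51.8% over all genes tested, and no corrected median was taken. The 5 with the smallest p were FTH1, OSGIN1, FTL, MAFF and TRIM16L. FTH1 and FTL, the ferritin chains that store iron, rose from 4123 ± 294 to 13217 ± 1467 TPM and from 3372 ± 473 to 8903 ± 638 TPM (adjusted p = 0.00122 and 0.00231). OSGIN1, induced by oxidative stress, rose from 4.39 ± 0.850 to 23.3 ± 1.57 TPM, MAFF, a small MAF protein, from 7.25 ± 1.38 to 26.2 ± 2.45 TPM, and TRIM16L from 20.5 ± 2.07 to 42.6 ± 5.37 TPM (adjusted p = 0.00131, 0.00247 and 0.00797). All 5 were called after the GC and length correction too. The call of TRIM16L was lost without penfluridol 2 (0.0626). With replicate number as a block in the model, the calls of FTL (0.0584), MAFF (0.0538) and TRIM16L (0.0916) were lost. FTL was lost with that block and the GC and length correction together too (0.0519). GSTP1, GSTO1 and MGST1, which hold the core TGACNNNGC in their windows, had log2 fold changes of 0.14, -0.37 and -0.92 in the same libraries, none called. Whether the match bears on these levels was not tested.

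**Figure D5:**
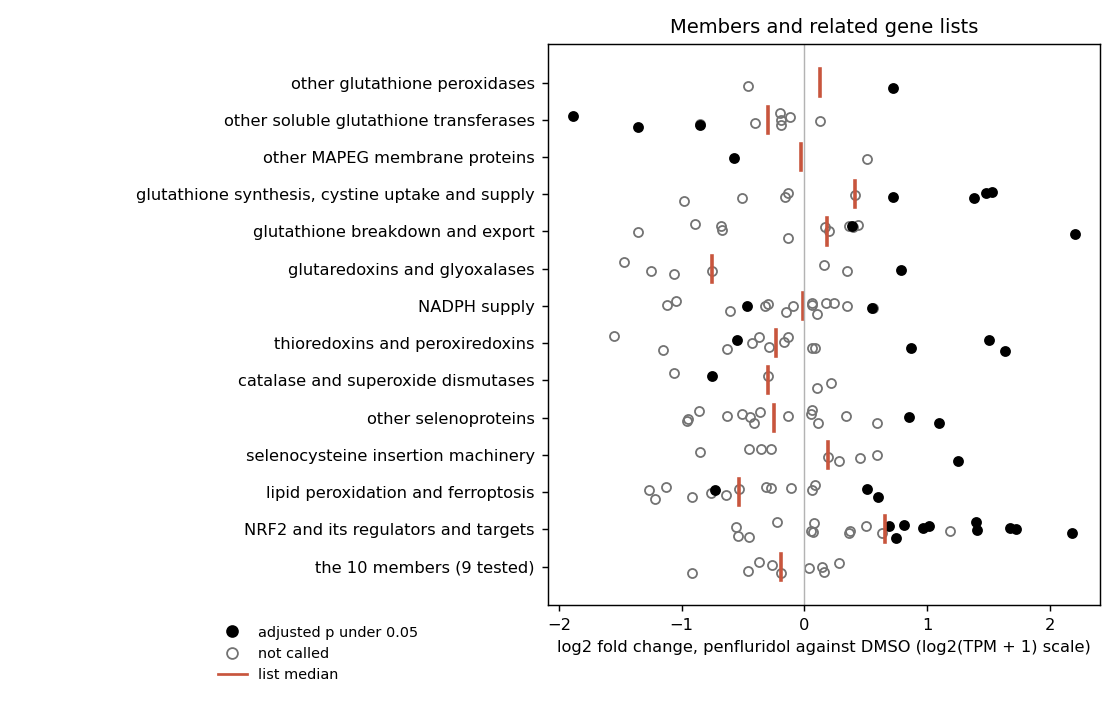
Log2 fold change of every tested gene of the 13 lists and of the 9 tested members, 1 row per list, with filled points for adjusted p under 0.05, open points for the rest and a bar at the list's median. The NRF2 row has 10 filled points, all above 0, and the row of members has 0 filled points and a median of -0.19.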

How the data were processed

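RNA libraries of 3 DMSO and 3 penfluridol samples were grouped by the labelled treatment. The deposited table gives TPM per gene, and its unit follows from the values, with library sums of 994165 to 997207. Reads were handled with fastp and RSEM on GRCh38.p13, per the submitters' processing notes, which give no versions. The depth is therefore unknown and no counting interval is given. It held 0 columns of other samples, and 1 line was empty.

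A linear model of treatment was fitted with limma 3.58.1 (R 4.3.3) to log2(TPM + 1) of the 12201 genes whose mean reached 1 TPM. Variances followed a trend with expression, p-values were two-sided and Benjamini-Hochberg adjusted over all genes tested, and calls were made under 0.05. The model was tested on simulated data. GC content and length are medians over GENCODE release 29 transcripts, available for 99.3% of the genes tested. Their trends were removed per library with natural splines (5 df each). Genes named are the members and, per list, the called genes or the 5 with the smallest p. Others are stated as chosen after their values were seen. Members and lists were chosen with earlier results of these data known. Protein sequences were not used here.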

Additional observations from a re-analysis of the deposited data

How the results depend on the processing

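Over 13 alternatives (a pseudocount of 0.1, 2 filters, scaling, the GC and length correction, the block alone and with that correction, and each of 6 libraries left out), the 9 tested members gave 117 log2 fold changes. Of these, 102 kept their direction and their side of the threshold, 3 crossed it (MGST1) and 12 turned sign. With the GC and length correction, with or without the block, the values that turned were GPX4 at -0.16, GPX8 at 0.23, GSS at -0.15, GSTP1 at -0.17 and MGST3 at 0.06. GSS also turned without 1 library, with a range of -0.10 to 0.15. The number of members called lower was 1 with the filter of at least 5 TPM and with median-of-ratios scaling, and 0 to 1 with a library left out (1 without DMSO 3). The number called higher was 0 throughout. Over all genes, without a filter 802 were higher and 194 lower, with median-of-ratios scaling 993 and 718, and with the GC and length correction 1227 and 1081. With a library left out the counts were 214 to 1732 higher and 42 to 2380 lower. In the 13 lists the number lower was 4 without a filter, 16 with median-of-ratios scaling and 23 with the GC and length correction. With a library left out it was 0 to 33, and the number higher 11 to 31. Of 388 values for the called list genes that the text names, 263 kept the call and 125 lost it, with 0 turned. For each change the cause was not tested. Among all genes tested the median log2 fold change moved to between -0.13 and 0.07 under these settings. DESeq2 and TMM were not run, since the table holds TPM. Depth is unknown and limits what can be said of GPX2 and GPX8.

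Whether the replicate numbers pair the libraries is not stated in the labels. The deviations of same-numbered libraries from their group means correlated at -0.00807, -0.00607 and -0.348, and DMSO 3 correlated best with penfluridol 1 (0.32). These correlations cannot decide it, since each mean rests on 3 libraries and the deviations carry the GC trends of the libraries. With the replicate block 62 genes were higher and 12 lower over all genes, with 6 and 0 in the 13 lists, and 0 members were called. The block with the GC and length correction gave 385 and 248, with 14 and 2 in the lists.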
